A study of Mus musculus with 6 samples.

Results

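The S100 proteins are small calcium-binding proteins with paired EF-hand motifs that act mostly as dimers, inside the cell and, for several members, after release from it. S100A8 and S100A9 form calprotectin, which fills the cytosol of neutrophils, binds zinc and manganese and can signal through TLR4 and RAGE. Its protein in stool is a clinical marker of intestinal inflammation. S100A4, S100A6, S100A10, S100A11 and S100A13 are found in many cell types, where they bind cytoskeletal, annexin or export partners.

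The 7 genes described here, S100a8, S100a9, S100a4, S100a6, S100a10, S100a11 and S100a13, were chosen by name and matched by Ensembl identifier to 7 of the 56750 rows of the deposited expression table. The values are TPM, the length-scaled share of a library's transcripts, from bulk RNA sequencing. They came from cells sorted as lineage-negative, Sca1-positive and cKit-positive (LSK, the fraction that holds stem cells and multipotent progenitors) from the femur marrow of C57BL/6 mice. DIC mice had colitis induced by dextran sulfate sodium (DSS), an irritant of the colon lining, given at 2.5% for 5 days. Control mice are labelled only as control. The labels give 3 mice and 3 libraries per group, with no age or sex, and name nothing that the groups share beyond strain, tissue and sort. Libraries are called DIC 1, 2 and 3 and control 1, 2 and 4 after the numbers of the table's columns. The labels do not say that each library is 1 mouse, and the p-values reflect how far these libraries vary, which may be technical.

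In all, 20474 to 22720 rows lay above 0 TPM per library, and TPM holds no sequencing depth, so no counting error could be given. Control 2 stood apart from the other controls. Neutrophil markers, a list of 16 genes without S100 members, summed to 41517 to 54568 TPM in DIC, 32379 in control 2, 10403 in control 1 and 6622 in control 4. Single genes of the sort lay far below these sums of 16 genes. Ly6a, which encodes Sca1, lay at 15.5 to 49.9 TPM over the 6 libraries and Kit at 54.2 to 99.5. Single neutrophil markers ranged in control 1 from 2.28 TPM for Cxcr2 to 3448 TPM for Ngp. The neutrophil surface gene Ly6g, a marker that a lineage depletion commonly targets, was at 367, 71.3 and 182 TPM in the DIC libraries, and at 12.2, 48.8 and 7.5 in controls 1, 2 and 4. Each result that rests on control 2 is therefore given with and without it. This choice rests on neutrophil markers, whose mean log2(TPM + 1) had a Pearson r of 0.978 with S100a8 and 0.960 with S100a9. Leaving out control 2 thus narrows the control spread of genes that follow these markers. Adjusted p-values without it, here and below, are a description and not independent support. In bulk samples, fewer cells of a type and less RNA per cell cannot be told apart.

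All 7 genes lie on mouse chromosome 3 in the RefSeq order of the assembly GRCm38.p6, an earlier one than the submitters' GRCm39. S100a8 and S100a9 are neighbours there on opposite strands, S100a11 is followed by S100a10, and the gene body of S100a13 overlaps that of S100a1. By exons, the only overlap of a member with another gene was that of S100a4 with Gm42674 on the same strand, so reads of S100a4 could be divided between them. Gm42674 was listed at 0 in all 6 libraries. The 250 bases before the annotated start are shown for S100a8 and S100a9, the pair whose values moved together over the libraries. Capitals mark matches to 5 motifs searched on both strands. The C/EBP form was TTGCNNAA and the STAT form was TTCNNNGAA. The PU.1 core was searched as GAGGAA. The AP-1 motif was searched as TGANTCA. The TATA box was searched as TATAAA. The sequences are from RefSeq, GRCm38.p6, at chr3:90668821-90669070 on the plus strand for S100a8 and chr3:90695722-90695971 on the minus strand for S100a9, written 5′ to 3′.
S100a8: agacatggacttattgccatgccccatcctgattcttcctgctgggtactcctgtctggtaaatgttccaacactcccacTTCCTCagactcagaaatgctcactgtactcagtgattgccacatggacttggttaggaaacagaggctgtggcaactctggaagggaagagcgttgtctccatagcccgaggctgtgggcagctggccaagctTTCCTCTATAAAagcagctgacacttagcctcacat
S100a9: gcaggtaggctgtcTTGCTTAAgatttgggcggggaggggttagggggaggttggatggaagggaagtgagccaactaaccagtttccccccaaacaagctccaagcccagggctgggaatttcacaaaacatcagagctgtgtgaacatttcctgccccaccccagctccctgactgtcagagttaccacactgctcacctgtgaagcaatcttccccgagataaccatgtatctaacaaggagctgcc

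The S100a8 window held the reverse form of GAGGAA beginning 170 and 36 bases before the start, and TATAAA beginning 30 bases before it, directly after the second GAGGAA match. S100a9 held 1 match, TTGCTTAA, beginning 236 bases before the start. Its TATAAA began at base 1 after the annotated start and so lay just outside the printed bases. None of the 5 motifs was shared by these windows. Over all 32851 promoter windows of this length, GAGGAA was present in 23.3%, TATAAA in 12.4% and TTGCNNAA in 9.56%. Among the other members, S100a4 held TATAAA and S100a11 held GAGGAA once and the AP-1 motif TGANTCA, present in 6.75% of windows, beginning 136 and 38 bases before the start. TTCNNNGAA, present in 7.02% of windows, had no match in any of the 6 windows read, and those of S100a6 and S100a13 held none of the 5 motifs. S100a10 was not matched. A match is a run of letters and not a measured site.

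The calprotectin genes were among the most abundant transcripts in every library, and higher in all DIC libraries than in all controls. S100a8 (ENSMUSG00000056054), the smaller calprotectin subunit, measured 105476, 63966 and 86346 TPM in the DIC libraries 1, 2 and 3, and 18348, 52974 and 13283 TPM in controls 1, 2 and 4. The groups did not overlap, but control 2 lay nearer to DIC 2 than to the other controls. S100a9 (ENSMUSG00000056071), the larger subunit, measured 69749, 51010 and 59227 TPM in the DIC libraries 1, 2 and 3, and 14055, 41595 and 10554 TPM in controls 1, 2 and 4. It showed the same order of libraries, from DIC 1 as the highest to control 4 as the lowest. The group means were 85262 ± 20776 against 28202 ± 21603 TPM for S100a8 and 59995 ± 9393 against 22068 ± 17002 TPM for S100a9 (SD, n = 3 each). S100a8 was the row with the highest TPM in 5 of the 6 libraries and ranked 3 in control 4. S100a9 ranked 2 in those 5 and 7 in control 4.

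Differences are given as log2 fold changes of TPM + 1, DIC minus control, from limma fitted over all 13496 tested genes with Benjamini-Hochberg adjustment. S100a8 differed by 1.83 ± 0.59 (SE; 95% interval 0.44 to 3.22, limma adjusted p = 0.212) and S100a9 by 1.70 ± 0.56 (0.38 to 3.01, limma adjusted p = 0.212). Neither passed the threshold of 0.05. Without control 2 both passed, at 2.42 ± 0.29 for S100a8 (limma adjusted p = 0.0162) and 2.29 ± 0.23 for S100a9 (limma adjusted p = 0.0126). Control 2 was picked out by markers that moved with these genes, so the p-values without it are a description. Quantile normalization, which gives the highest-ranked genes of each library the same values, left 0.47 for S100a8 and 0.59 for S100a9.

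**Figure D1:**
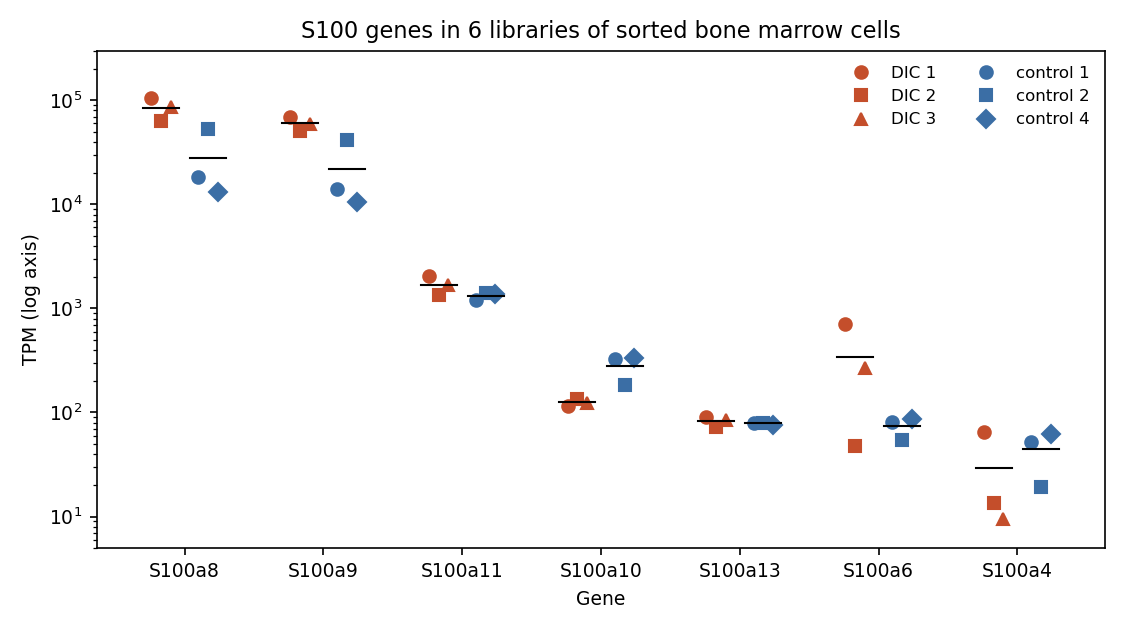
TPM of the 7 S100 genes on a log axis, 1 point per library, with DIC in orange, control in blue and a black bar at each group's mean. S100a8 and S100a9 lie at 10554 TPM or more in every library, S100a10 is lower in DIC without overlap, and S100a6 spreads from 47.7 to 709 TPM within DIC.

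The balance between the subunits was similar in all 6 libraries. The TPM ratio of S100a8 to S100a9 was 1.51, 1.25 and 1.46 in DIC and 1.31, 1.27 and 1.26 in controls 1, 2 and 4. DIC 2 lay below all 3 controls while DIC 1 and DIC 3 lay above them, so the groups overlapped. Across the 6 libraries the log2(TPM + 1) values of the pair had a Pearson r of 0.997, a description over points that share their scaling within a library. Ratios to other neutrophil genes varied by gene. The ratio of S100a8 to each of the 16 neutrophil markers overlapped between the groups for 13, was lower in every DIC library for 2, Ltf and Ly6g, and was higher for 1, Wfdc21. For S100a9, 10 overlapped, 5 were lower (Ltf, Lcn2, Cd177, Ly6g and Itgb2l) and 1 was higher (Wfdc21). The ratio of S100a8 to Ly6g was 288, 897 and 473 in DIC and 1502, 1086 and 1771 in controls 1, 2 and 4. Its ratio to Ltf, the lactoferrin gene, was 32.2, 27.7 and 34.0 in DIC and 52.2, 36.3 and 78.5 in controls 1, 2 and 4. The ratio of S100a8 to Ngp, which encodes a neutrophil granule protein, was 5.89, 4.10 and 5.23 in DIC and 5.32, 4.52 and 5.85 in controls 1, 2 and 4. S100a8 and S100a9 together were 2.77 to 3.21 times the summed TPM of the 16 neutrophil markers, a sum made up largely of Ngp and Camp, in DIC and 2.92 to 3.599 times in controls. These ratios do not depend on the scaling of a library, and the groups overlapped for Ngp and for the sum. Against Mpo, the myeloperoxidase gene of primary granules, the groups separated: S100a8 was 10.5, 5.16 and 8.03 times Mpo in DIC and 1.39, 4.55 and 1.07 times in controls 1, 2 and 4. Mpo itself overlapped between the groups, at 10026 to 12402 TPM in DIC and 11639 to 13183 in control. Of 7 tested primary granule markers, 5 had a difference below 0 and 2 above it, and none passed limma's adjusted threshold. Their sum overlapped, at 27084 to 33964 TPM in DIC and 31457 to 34805 in control. Ctsg (1 of 7) was lower in every DIC library, where 18.4% of tested genes were. Fcnb ran the other way, at 1217, 1518 and 1272 TPM in DIC and 488, 1352 and 500 in controls 1, 2 and 4.

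The neutrophil markers moved with S100a8 and S100a9. All 16 were tested, and the difference was above 0 in 16, with a median of 2.22 against -0.08 over all tested genes. Of these, 13 separated the groups, all higher in DIC, where 7.08% of tested genes did. None passed limma's adjusted threshold (0 of 16, with 16 at an unadjusted p under 0.05, where 20.2% of tested genes were), and 12 passed as higher without control 2, where 3.93% of tested genes did. No marker was at 0 in all libraries. The part of these cells in the S100a8 and S100a9 difference was not tested. Of the 16 markers, 14 had a higher Pearson r over the 6 libraries with S100a8 or S100a9 than with S100a6, led by Itgb2l and Ngp at 0.998 and 0.996 with S100a9. Of all tested genes outside the members, those with the closest profiles, picked as the 3 highest r for each member, were Kbtbd7, Ly75 and Tesk2 for S100a8 and Tbc1d8, Adpgk and Prom1 for S100a9. Their r ranged from 0.999 to 1.00 over 6 libraries. Adpgk, which encodes an ADP-dependent glucokinase, measured 262.5, 200.5 and 232 TPM in DIC and 63.8, 162 and 49.5 TPM in controls 1, 2 and 4, again with control 2 between.

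S100a10 was the member that was lower in every DIC library. It encodes p11, which has lost calcium binding and joins annexin A2 in a heterotetramer at the membrane. S100a10 (ENSMUSG00000041959) measured 117, 135 and 123 TPM in the DIC libraries 1, 2 and 3, and 323, 186 and 334 TPM in controls 1, 2 and 4, with means of 125 ± 9.26 and 281 ± 82.6 (SD, n = 3 each). The DIC libraries lay close together, and control 2 lay between them and the other controls. The difference was -1.12 ± 0.23 (SE; 95% interval -1.66 to -0.57, limma adjusted p = 0.212) and did not pass. Without control 2 it was -1.39 ± 0.11 and passed (limma adjusted p = 0.00997). It was -0.97 when TPM was rescaled after removing S100a8 and S100a9, which together took 11.5% to 17.5% of TPM in DIC and 3.24%, 9.46% and 2.38% in controls 1, 2 and 4. That rescaling moved the median of all tested genes from -0.08 to 0.05, and removing the neutrophil markers as well moved it to 0.10.

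Over the 6 libraries S100a10 ran opposite to the calprotectin genes, with a Pearson r of -0.984 to S100a8 and to S100a9. The sum of basophil and mast cell markers had the same separation of groups. They summed to 432 to 599 TPM in DIC and to 1629, 1025 and 3478 TPM in controls 1, 2 and 4, and 6 of 7 tested members were lower in DIC without overlap, where 18.4% of tested genes were. None passed limma's adjusted threshold (0 of 7, with 6 at an unadjusted p under 0.05, against 20.2% of tested genes), and 4 passed as lower without control 2, against 8.45% of tested genes. Prss34 and Mcpt8, basophil proteases, measured 170 ± 38.6 against 1026 ± 707 and 125 ± 27.8 against 636 ± 434 TPM (SD, n = 3 each). The mast cell gene Mcpt4 was listed at 0 in all 6 libraries. T and NK cell markers summed to 1338 to 1803 TPM in DIC and 1800 to 2316 in control, nearly all of it Nkg7, at 1302 to 1782 and 1747 to 2206 TPM. All 9 tested had a difference below 0, and 4 (Trbc1, Ncr1, Gzma and Ccl5) were lower in every DIC library, against 18.4% of tested genes. None of the 9 passed limma's adjusted threshold. The sum of LSK and stem cell markers separated the groups too, at 366 to 432 TPM in DIC and 485 to 577 in control. Cd48 was its largest part, at 138 to 160 TPM in DIC and 214 to 260 in control. Without Cd48 the sum overlapped between the groups. Of 11 tested, 6 had a difference below 0 and 5 above it. Cd34, Cd48 and Hoxa9 (3 of 11) were lower in every DIC library, where 18.4% of tested genes were, and none passed limma's adjusted threshold. The part of any of these cells in the S100a10 difference was not tested. The genes closest to S100a10 in profile were Taf10, Nup88 and Mtmr14, with r of 0.998 to 0.999 over 6 libraries. Taf10, a subunit of the general transcription factor TFIID, measured 169, 185 and 175 TPM in DIC and 279, 214 and 292 TPM in controls 1, 2 and 4.

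**Figure D2:**
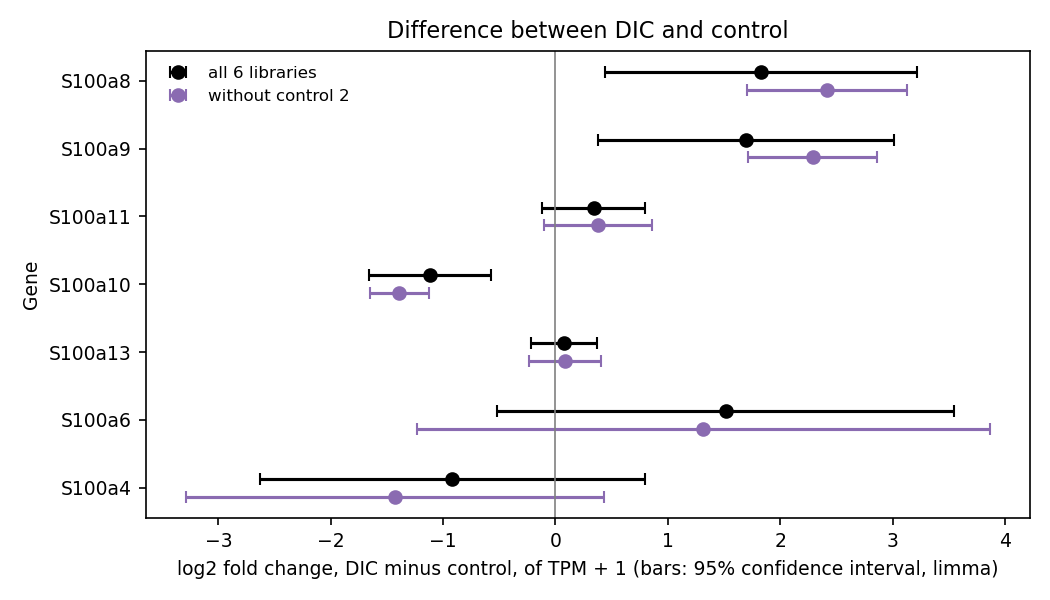
Log2 fold change of TPM + 1, DIC minus control, for each member, with 95% confidence intervals from limma over all 6 libraries in black and without control 2 in purple. The intervals of S100a8, S100a9 and S100a10 lie on 1 side of 0 in both fits, while those of the other 4 members include 0.

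S100a6 (ENSMUSG00000001025) encodes calcyclin, which binds the ubiquitin-ligase adaptor CacyBP. It measured 709, 47.7 and 268 TPM in the DIC libraries 1, 2 and 3, and 80.9, 54.6 and 86.0 TPM in controls 1, 2 and 4. DIC 1 and DIC 3 were above every control, and DIC 2 was below every control. The highest library was 14.9 times the lowest, the widest range of the 7 members. The difference of 1.52 ± 0.86 (SE; 95% interval -0.52 to 3.55, limma adjusted p = 0.354) did not pass, and it was 0.64 without DIC 1 and 2.57 without DIC 2 (limma adjusted p = 0.713 and 0.115).

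The division among DIC libraries was shared by some neutrophil genes and not by others. Retnlg, a resistin-like gene of mature neutrophils, measured 5102, 81.4 and 1953 TPM in DIC and 63.7, 109 and 72.0 TPM in controls 1, 2 and 4. Mmp8, the neutrophil collagenase, measured 562, 13.3 and 197 TPM against 6.78, 14.6 and 6.69 TPM. In both genes DIC 2 lay with the controls, as in S100a6, and these were the 2 markers of 16 with a higher r to S100a6 (0.949 and 0.925) than to S100a8 or S100a9. Their r to S100a11 was as high, at 0.954 and 0.957. The division was not confined to them. Mmp9 measured 646, 28.8 and 243 TPM in DIC and 5.74, 26.1 and 4.27 TPM in controls 1, 2 and 4. Cxcr2 measured 87.0, 6.95 and 30.4 TPM in DIC and 2.28, 9.13 and 2.59 TPM in controls 1, 2 and 4. Both had a higher r to S100a8 (0.914 and 0.880) than to S100a6 (0.825 and 0.852). The granule genes Ngp and Camp did not divide the DIC libraries in this way, with Ngp at 17917, 15596 and 16508 TPM and Camp at 9651, 10500 and 10505. Erythroid markers followed the same division, at a summed 1369, 456 and 999 TPM in DIC 1 to 3 and 381 to 486 in control. Their part in the S100a6 values was not tested. The closest profiles to S100a6 were those of Pira2, Bmx and Lmna (r of 0.992 to 0.996 over 6 libraries). Pira2, a paired immunoglobulin-like receptor gene, measured 26.5, 1.88 and 11.1 TPM in DIC and 2.69, 2.14 and 3.02 TPM in controls 1, 2 and 4. It belongs to a family of near-identical genes, among which reads can be shared.

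**Figure D3:**
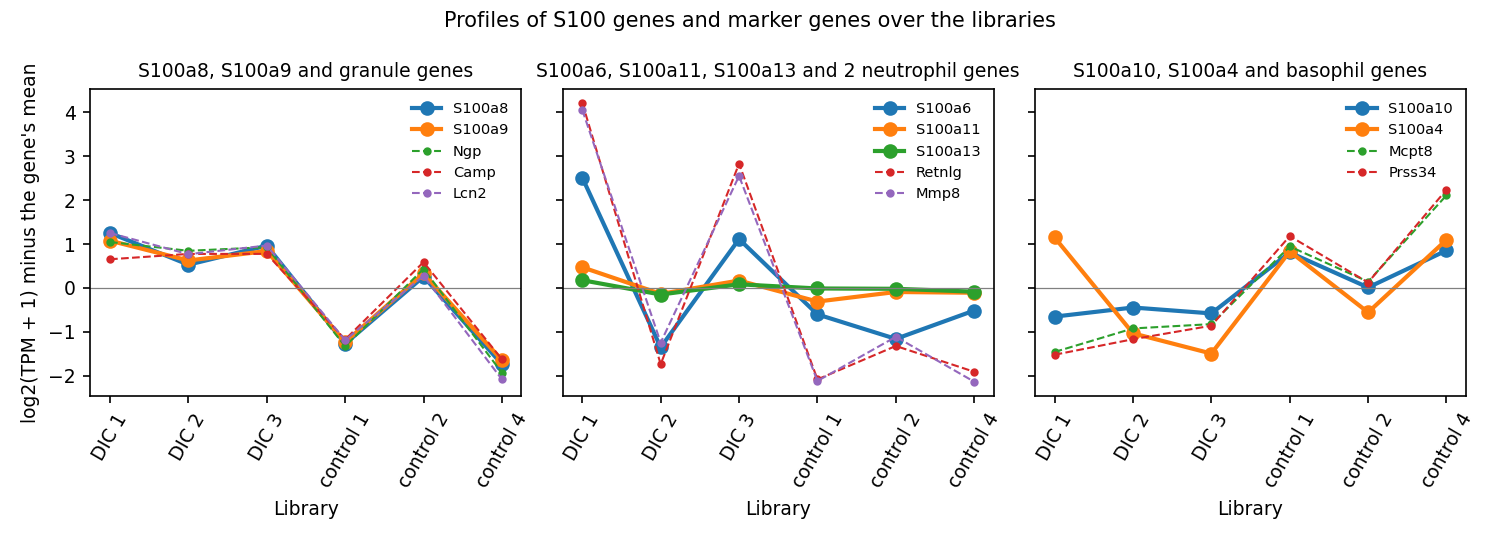
Log2(TPM + 1) of S100 genes (solid lines) and marker genes (dashed lines) minus each gene's mean over the 6 libraries. Lines join libraries only for reading, since replicates have no order. Control 2 lies near DIC for S100a8, S100a9 and the granule genes, and DIC 2 lies with the controls for S100a6, Retnlg and Mmp8.

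S100a11 (ENSMUSG00000027907), a binding partner of annexin A1, was the third most abundant member in all 6 libraries. It measured 2062, 1355 and 1672 TPM in the DIC libraries 1, 2 and 3, and 1199, 1395 and 1379 TPM in controls 1, 2 and 4. DIC 2 lay below controls 2 and 4, so the groups overlapped. The difference was 0.34 ± 0.19 (SE; 95% interval -0.12 to 0.79, limma adjusted p = 0.354), and 0.19 without DIC 1. The closest profiles were those of Iglc2, Ighv1-76 and Serinc5, with r of 0.997 to 0.999 over 6 libraries. The immunoglobulin gene Iglc2, of a family in which reads can be shared between near-identical genes, measured 83.5, 4.5 and 21.8 TPM in DIC and 1.41, 5.99 and 4.37 TPM in controls 1, 2 and 4. The 10 B lineage markers summed to 484 to 628 TPM in DIC and 479.9 to 810 in control, with none at 0 in all libraries, and more than any other marker it held Ighm, at 266 to 392 TPM. Of 8 tested B lineage markers 7 had a difference below 0, and none passed limma's adjusted threshold. Cd79b, Vpreb1 and Igll1 (3 of 8) were lower in every DIC library, where 18.4% of tested genes were. Jchain, a gene of antibody-secreting cells, ran the other way, at 132, 26.9 and 55.2 TPM in DIC and 3.39, 30.5 and 6.68 TPM in controls 1, 2 and 4. The part of these cells in the S100a11 values was not tested. A pseudogene of S100a11 was listed at 0 in all 6 libraries.

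S100a13 (ENSMUSG00000042312), which takes part in the export of FGF1 and interleukin-1 alpha, varied least. It measured 91.3, 72.6 and 85.5 TPM in the DIC libraries 1, 2 and 3, and 80.0, 79.5 and 76.0 TPM in controls 1, 2 and 4, with a coefficient of variation of 8.29% over the 6 libraries. The difference of 0.08 ± 0.12 (SE; 95% interval -0.22 to 0.37, limma adjusted p = 0.758) did not pass. Its cargo genes Fgf1 and Il1a were below the filter, at no more than 0.19 and 0.35 TPM in any library. The DIC libraries ordered DIC 1 above DIC 3 above DIC 2 in S100a13, as in S100a6, S100a11, S100a8 and S100a9. S100a6, S100a11 and S100a13 had pairwise r of 0.815 to 0.922 over 6 libraries. Its closest profiles outside the family were those of Tgds, Prkcd and Sgk3 (r of 0.981 to 0.990).

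S100a4 (ENSMUSG00000001020), a partner of nonmuscle myosin IIA, was the least abundant member in all 6 libraries. It measured 65.0, 13.5 and 9.54 TPM in the DIC libraries 1, 2 and 3, and 51.9, 19.2 and 62.6 TPM in controls 1, 2 and 4. DIC 1, control 1 and control 4 were high and the other 3 low, so the groups overlapped throughout. The difference was -0.92 ± 0.73 (SE; 95% interval -2.63 to 0.80, limma adjusted p = 0.497), and it ran from -1.72 without DIC 1 to -0.40 without DIC 3. S100a4 is known to be abundant in monocytes. Ccr2, a chemokine receptor gene of monocytes, had the same 3 high libraries, at 55.4, 19.1 and 15.0 TPM in DIC and 47.2, 20.9 and 35.5 TPM in controls 1, 2 and 4. Of the 10 monocyte and macrophage markers, 4 (Csf1r, Ly6c2, Ccr2 and F13a1) had the same 3 highest libraries as S100a4, while the complement genes C1qa and C1qb were lowest in exactly those 3 and the other 4 followed neither order. The list summed to 4899 to 5206 TPM in DIC and 4551 to 7276 in control, mostly Ly6c2, with none at 0 in all libraries. Its part in the S100a4 values was not tested. The closest profiles to S100a4 were those of Htatip2, Snx14 and Gtpbp8 (r of 0.976 to 0.988), genes with small ranges, as in Htatip2 at 14.7 to 20.8 TPM.

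Of the 7 members, 0 passed limma's adjusted threshold, where 0.037% of tested genes passed as higher, 0.0222% as lower and 0.0593% in either direction, and 0 passed with limma without a trend or with a robust prior. At an unadjusted p under 0.05 there were 3, S100a8, S100a9 and S100a10, where 20.2% of tested genes were. The same 3 members separated the groups without overlap, where 25.5% of tested genes did. Without control 2, 3 of 7 passed, S100a8 and S100a9 as higher and S100a10 as lower, where 3.93% of tested genes passed as higher, 8.45% as lower and 12.4% in either direction. Levels ordered S100a8 above S100a9 above S100a11 in each of the 6 libraries, with S100a4 last. S100a6, S100a10 and S100a13 changed places: S100a6 was above S100a10 in DIC 1 and DIC 3 and below it in the other 4 libraries. The mean log2(TPM + 1) of the calprotectin genes exceeded that of the other 5 members by 8.40, 9.17 and 9.01 in DIC and by 6.57, 8.63 and 6.03 in controls 1, 2 and 4. Control 2 lay within the DIC range on this measure, so the groups overlapped.

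Most other S100 genes were near 0. Of 9 further family members, 1 was tested, S100a1, best known as a calcium regulator of muscle. It measured 152, 201 and 160 TPM in DIC and 182, 187 and 196 TPM in controls 1, 2 and 4 (difference -0.15 ± 0.14 SE, limma adjusted p = 0.556). The sign of this difference depended on the scaling. The ratio of S100a13 to S100a1, whose gene bodies overlap, was 0.60, 0.36 and 0.53 in DIC and 0.44, 0.43 and 0.39 in controls 1, 2 and 4, with overlap between the groups. S100a14 and S100g were listed at 0 in all 6 libraries. S100a3, below the filter for a test, read 1.04, 0.92 and 0.23 TPM in the DIC libraries, against a listed 0 in each control. S100a7a, also below the filter, read 0.48, 0.28 and 0.53 TPM in DIC and 0, 0.06 and 0 in controls 1, 2 and 4. Values this low, without a sequencing depth, carry no known counting error.

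Receptors for released S100 proteins were measured in the same libraries. Of 10 listed receptor and signalling genes, 9 were tested and none passed limma's adjusted threshold (0 of 9, with 3 at an unadjusted p under 0.05, where 20.2% of tested genes were). The median difference was 0.13, against -0.08 over all tested genes. Tlr4, the Toll-like receptor for calprotectin, measured 8.18 ± 1.36 against 5.60 ± 1.77 TPM and its co-receptor gene Ly96 13.6 ± 8.47 against 11.7 ± 4.003 TPM. Ager, which encodes RAGE, lay at 0.55 to 1.66 TPM over the 6 libraries, near the filter. Cd33, a sialic acid-binding receptor to which human S100A9 is reported to bind, measured 66.2, 21.5 and 39.5 TPM in DIC and 7.28, 16.5 and 5.53 TPM in controls 1, 2 and 4, without overlap (difference 2.00 ± 0.48 SE, limma adjusted p = 0.212). Tirap, an adaptor below TLR4, measured 19.9 ± 3.25 against 11.4 ± 5.22 TPM. Without control 2, Cd33 and Tirap passed as higher (limma adjusted p = 0.0295 and 0.0249), where 3.93% of tested genes did. Cd14 measured 9.36 ± 4.39 against 17.5 ± 12.0 TPM and Bsg, another proposed S100A9 receptor, 312 ± 9.82 against 374 ± 22.1 TPM (SD, n = 3 each for all).

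The binding partners inside the cell are set beside their S100 genes. Of 16 listed partners and annexins, 13 were tested, and none passed limma's adjusted threshold (0 of 13, with 5 at an unadjusted p under 0.05 against 20.2% of tested genes, median difference -0.07). Anxa2, the partner of S100a10, measured 448, 224 and 286 TPM in DIC and 313, 242 and 239 TPM in controls 1, 2 and 4, with overlap. The TPM ratio of S100a10 to Anxa2 was 0.26, 0.60 and 0.43 in DIC and 1.03, 0.77 and 1.40 in controls 1, 2 and 4, lower in every DIC library. Anxa1, the partner of S100a11 and itself abundant in neutrophils, measured 1914, 1112 and 1350 TPM in DIC and 603, 963 and 581 TPM in controls 1, 2 and 4 (difference 1.03 ± 0.27 SE, limma adjusted p = 0.212). The ratio of S100a11 to Anxa1 was 1.08 to 1.24 in DIC and 1.99, 1.45 and 2.37 in controls 1, 2 and 4, again without overlap. These ratios were chosen after their values were seen and are a description.

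Cacybp, the partner of S100a6, measured 156 ± 30.3 against 189 ± 37.8 TPM (SD, n = 3 each), and the S100a6 to Cacybp ratio was 5.17, 0.34 and 1.41 in DIC and 0.35 to 0.47 in control. Myh9, the myosin heavy chain bound by S100a4, measured 61.0, 41.9 and 50.5 TPM in DIC and 21.4, 31.7 and 25.7 TPM in controls 1, 2 and 4, above every control (difference 0.94 ± 0.20 SE, limma adjusted p = 0.212). The S100a4 to Myh9 ratio was 1.06, 0.32 and 0.19 in DIC and 2.42, 0.61 and 2.44 in controls 1, 2 and 4, with overlap. Anxa6 was lower in every DIC library, at 27.6 ± 3.31 against 53.2 ± 10.3 TPM (difference -0.91 ± 0.18 SE, limma adjusted p = 0.212). Without control 2, Anxa1, Anxa11 and Myh9 passed as higher and Anxa6 as lower, against 3.93% and 8.45% of tested genes.

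**Figure D4:**
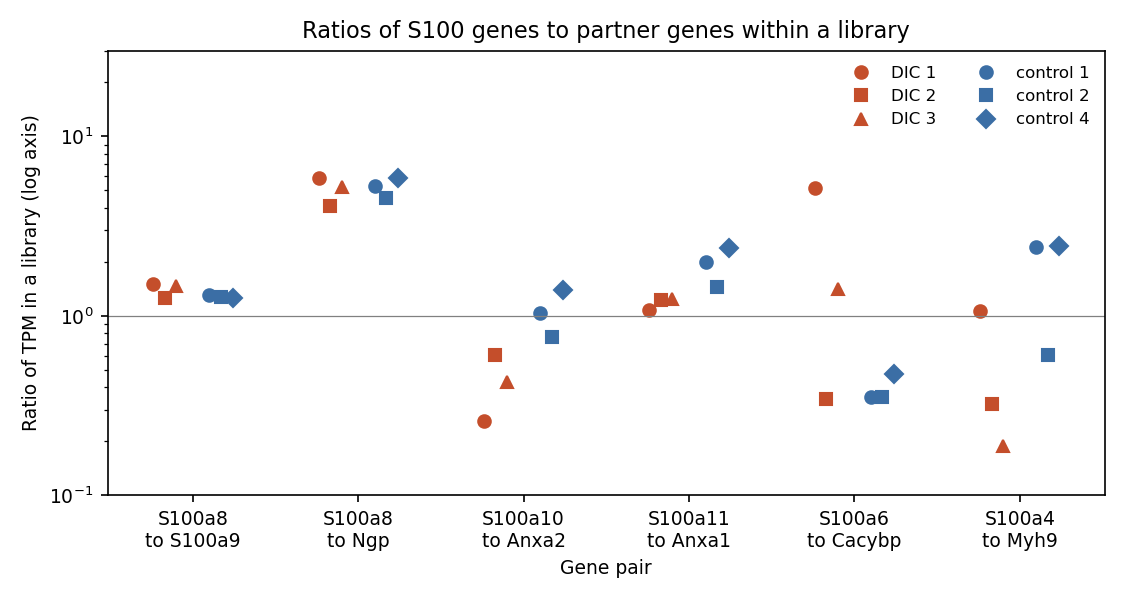
Ratio of the TPM of an S100 gene to that of a partner gene within each library, on a log axis, with DIC in orange and control in blue. The ratios of S100a10 to Anxa2 and of S100a11 to Anxa1 are lower in every DIC library, while those of S100a8 to S100a9 and to Ngp overlap between the groups.

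Transcription factors of the myeloid lineage were given for comparison, since C/EBP proteins and PU.1 are known to act at calprotectin genes. Of 9, all tested, none passed limma's adjusted threshold (0 of 9, with 2 at an unadjusted p under 0.05, near the 20.2% of tested genes, median difference -0.11). Cebpe, which encodes the factor of late granulocyte maturation, measured 180, 212 and 216 TPM in DIC and 95.4, 231 and 94.96 TPM in controls 1, 2 and 4, so that control 2 was the highest of all. Cebpb, a factor of emergency granulopoiesis, was lower in every DIC library, at 55.7 ± 1.62 against 96.2 ± 26.8 TPM, and Irf8, a factor of monocyte fate, measured 61.8 ± 13.4 against 146 ± 46.3 TPM (SD, n = 3 each). Spi1, which encodes PU.1, measured 197 ± 16.6 against 213 ± 17.1 TPM and overlapped between the groups. Without control 2, Cebpe passed as higher and Cebpb, Irf8 and Klf4 as lower, where 3.93% of tested genes passed as higher and 8.45% as lower.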

How the data were processed

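The 6 libraries were deposited as 1 matrix of TPM (56750 rows, 2 decimals), scaled by the authors so that a library sums to 1000000. The submitters' processing notes name fastp 0.19.5, HISAT2 2.1.0, StringTie 2.1.2 and the build GRCm39, with no annotation release given in the sources used here. Symbols were matched by Ensembl identifier for 52081 rows. Columns 1 and 4 of the controls could be tied to the group but not to 1 sample each.

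The 13496 genes that reached 1 TPM in 3 or more libraries were tested on log2(TPM + 1) by limma 3.58.1 (R 4.3.3, trended prior), with two-sided p-values and Benjamini-Hochberg adjustment at 0.05. Adding 1 understates changes of low genes. An exact permutation test of 3 against 3 cannot go below 0.1 and was not run. On simulated data of this comparison, 36.7% of genes with a log2 change of 1 and 81.2% with a change of 2 were recovered among 13496. Each simulated gene was drawn on its own, without a shift shared by many genes such as that of control 2. These shares therefore do not give the power of the real comparison, where 0 of 16 neutrophil markers passed at a median difference of 2.22. The 15 pairwise correlations of libraries lay between 0.907 and 0.964, so no library repeats another.

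The members and gene lists were chosen with earlier results of these data known. Named genes were drawn from the members, the 3 closest profiles per member, and receptors, partners and factors given for their role. From each list they were drawn from the genes past the threshold or, where none passed, the 2 with the lowest p. Of these, Mcemp1, Epor, Car2, Ppbp and Pf4 are not described above. Other marker genes (such as Ngp, Camp, Ltf, Retnlg, Mmp8, Nkg7, Ccr2 and Ighm) and the ratios other than that of S100a8 to S100a9 were chosen after their values were seen. Alternatives covered the pseudocount, filter, scaling, variance model and each library left out. Promoter windows (27025 genes) came from RefSeq.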

Additional observations from a re-analysis of the deposited data

How the results depend on the processing

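All 7 members kept the direction of their difference in every alternative run, which changed the pseudocount, filter, scaling, variance model or left out a library, and 0 passed in any of them except without control 2. There S100a8 (2.42), S100a9 (2.29) and S100a10 (-1.39) passed, a description only, since control 2 was picked out by its neutrophil markers. With 1 library left out, the differences ran from 1.42 to 2.42 for S100a8, 1.30 to 2.29 for S100a9 and -1.39 to -0.97 for S100a10. The mean of S100a8 and S100a9 over that of the other 5 members, a log2 ratio higher by 1.79 in DIC, was higher by 0.35 after quantile normalization, and the log2 ratio of S100a8 to S100a9 went from 0.13 to -0.13. That method gives equal ranks equal values, and S100a8 and S100a9 ranked 1 and 2 in 5 libraries but 3 and 7 in control 4.

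The number of genes past the threshold over the whole table, 5 higher and 3 lower, ran from 0 to 530 higher and 0 to 1141 lower with 1 library left out, the largest counts without control 2. It was 0 without DIC 1 and without control 4 (1239 and 1458 genes at an unadjusted p under 0.05). Higher genes numbered 2 and 3 with pseudocounts of 0.1 and 5 TPM, lower genes 1 after quantile normalization, and both counts were 0 without a filter (3241 at an unadjusted p under 0.05 of 28869 tested).

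The sign of small differences turned with the scaling. S100a1 was at 0.0617 after quantile normalization, 0.0001085 after rescaling without S100a8 and S100a9 and 0.0567 with the neutrophil markers removed too. Snx14 was at 0.0545 and 0.109 under these rescalings, and Htatip2 and Mpo at 0.0313 and 0.0381 under the latter. No paired analysis was possible because only replicate number 2 could be tied to a column in both groups. The labels also do not describe mice with the same replicate number as matched, so a shared number is not known to mark a pair.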
